A study of Homo sapiens with 4 samples.

Results

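The comparison of a segmented miR-124 duplex with mock transfection used 3 of the 4 arrays of the series. HCT-116 dicer- cells, a human colon carcinoma line with altered Dicer, were transfected at 10 nM with the duplex called miR-124 G10.12/P, whose guide strand is segmented, and collected at 24 h (1 array). The control was mock transfection of the same cells, also collected at 24 h (2 arrays, Control #1 and Control #2, called mock 1 and mock 2 here). The remaining array, cells given 10 nM of the duplex with an intact guide strand (miR-124 G/P) for 24 h, is set beside these values where it helps to read them. All cells carried the Dicer alteration, and cells with normal Dicer were not analysed here. Of 52377 probe sets on each array, 35184 belonged to a single gene, and these gave 1 value for each of 19798 genes. Levels are log2 intensities, and a change is the segmented array minus the mean of the mock arrays.

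MicroRNAs are short RNAs that sit in an Argonaute protein and guide it to messenger RNAs, mostly through pairing of the seed near the start of the guide strand. The messenger RNA is then translated less and degraded, so that direct targets of an added microRNA are usually found lower. Dicer cuts microRNAs out of their precursors, so cells with impaired Dicer hold fewer of their own. miR-124 is abundant in neurons, where it represses genes of non-neuronal cells, among them regulators of splicing, adhesion and the cell cycle. The series asks whether activity through the seed persists when the guide strand is cut into segments.

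The 1 segmented array has no replicate, so each test by limma took its spread from the mock pair and assumed that the treated array varied like them. The labels do not state whether the mock arrays hold separate cultures, so the p-values rest on a spread that may be technical. No other duplex served as control, so the effect of receiving any duplex and the effect of this one cannot be told apart from these 3 arrays. General epithelial genes were bright: the adhesion molecule gene EPCAM stood at 13.01 and 13.06 on the mock arrays and at 13.05 on the segmented array, and CDH1, the E-cadherin gene, at 11.64 on the segmented array, 0.60 above the mock mean (limma adjusted p = 0.0776). Markers of colon were mostly dim. CDX2, an intestinal transcription factor, was at 7.67 and 7.71 in mock cells, but the mock means of VIL1 (2.98), CDH17 (3.25), LGALS4 (3.34), CEACAM5 (2.0), MUC2 (3.0), CDX1 (3.39) and KRT20 (5.77) all lay below the median level of all genes. Markers of other cell types were mostly dim, with 21 of 24 below the median level of all genes (6.76) on the mock arrays, and none was at 0. Their summed linear intensity was 1101 and 1000 on the mock arrays and 1266 on the segmented array, and limma called none of them (3 had an unadjusted p under 0.05; 1 was higher in each of 4 alternative fits).

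DICER1, the gene altered in this line, was at 11.21 and 11.28 in mock cells and 10.80 in segmented cells. The change of -0.45 did not pass (limma adjusted p = 0.122). DICER1 did pass as lower in some alternative fits: without the dimmest 40% of genes, with a pseudocount of 32, with a trended and robust prior and with the mean of all probe sets. Its 4 dimmer probe sets had changes of -0.70, -0.86, -1.11 and -1.19, so all 5 probe sets were lower on the segmented array than on both mock arrays. The sources used here do not say which of them lie in the altered part of the gene, so these values do not check the label.

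With the segmented duplex 1186 genes passed a limma adjusted p of 0.05, which is 5.99% of the genes tested. Of these 531 fell (2.68%) and 655 rose (3.31%). The array pools the RNA of a whole culture, so fewer cells with a transcript and less of it per cell cannot be told apart. Every gene called stood at least 1.5-fold from each mock array. The smallest called change was 0.80 in either direction, and the adjusted p-values of called genes all lay between 0.0348 and the threshold. With each array centred on its median, which moved the median change of all genes from 0.01 to -0.18, the split turned to 1256 lower and 593 higher. Counted by size alone, 2428 genes (12.3%) lay 1.5-fold or more away from each of the mock arrays, 4.89% below and 7.37% above, while 640 genes (3.23%) differed that much between the mock arrays.

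Falls and rises came from different ranges of expression. The 531 genes that fell had a median mock level of 10.06, and only 30 of them lay below the median of all genes. The 655 that rose had a median mock level of 6.97, and 307 lay below it. Split into 4 equal groups by mock level, the dimmest held 3 falls and 53 rises, and the brightest held 309 falls and 58 rises. The mock arrays themselves were 1.5-fold apart for 346 genes of the dimmest group and 0 of the brightest. Most changes were moderate: 32 falls and 25 rises reached 2 log2 units, a 4-fold change, and 3 falls and 2 rises reached 3 units. Among called genes with several probe sets, all probe sets went the same way for 300 of 354 falls (84.7%) and 277 of 343 rises (80.8%), against 60.6% of the 8731 genes measured more than once. Called genes were picked for a large change on 1 of these probe sets, so this is no independent check of the calls.

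**Figure D1:**
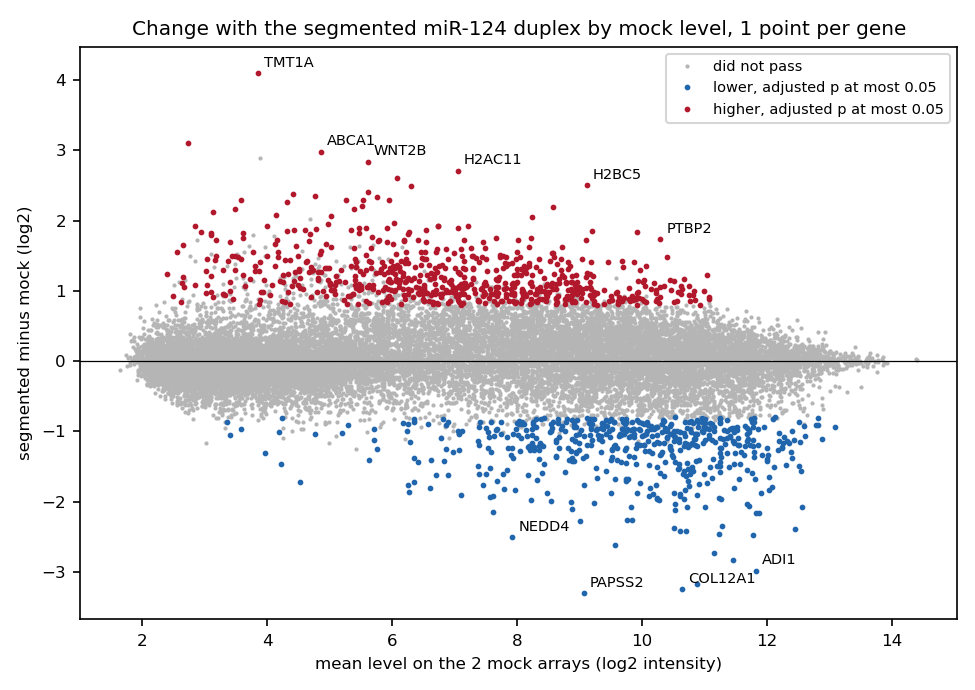
Change with the segmented duplex (segmented minus the mean of the mock arrays, log2) against mock level (log2 intensity), 1 point per gene for 19798 genes, coloured by limma's call. Genes that fell (531) lie mostly to the right, at a median mock level of 10.06, and genes that rose (655) spread further left, at a median of 6.97.

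The largest falls were of well expressed genes of unlike function. PAPSS2, which makes the sulfate donor used by sulfotransferases, stood at 9.08 and 9.05 on the mock arrays and 5.77 on the segmented array (9.83-fold lower, limma SE 0.12, adjusted p = 0.0348). COL12A1, a collagen gene, went from 10.65 and 10.64 to 7.40. CENPQ, whose product belongs to the inner kinetochore, went from 10.85 and 10.92 to 7.71. In each the mock arrays lay within 0.1 of each other and the segmented array more than 3 units below both. ADI1, an enzyme that recovers methionine, went from 11.87 and 11.79 to 8.84, and ATP6V0E1, a membrane subunit of the vacuolar proton pump, from 11.33 and 11.60 to 8.64.

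The rest of the 24 largest falls held genes of many kinds. GPAT3, an acyltransferase of triglyceride synthesis, was at 12.31 and 12.59 in mock cells and 10.06 with the segmented duplex, a 5.24-fold difference. GJB2, which encodes the gap junction protein connexin 26, went from 11.24 and 11.32 to 8.94. SERINC2 fell by 2.38, SRPX by 2.27, STOM by 2.26 and CMTM7 by 2.12. For SERINC2 2 of 3 probe sets went the same way, and for STOM all 4. The integrin gene ITGB8 went from 7.44 and 7.81 to 5.48, below its level with the intact duplex (5.82). POLR3G, a subunit of RNA polymerase III, was 11.83 on both mock arrays and 9.67 on the segmented array, and its 4 probe sets fell by 1.49 to 2.16. DNAJC1, a chaperone of the endoplasmic reticulum, fell by 2.26 and the transcription factor gene MYB by 2.08. By the rule that picked them, the segmented array lay below both mock arrays in all 24.

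The 16 rises named here are the largest called ones that reached a level above the median of all genes on the segmented array. Larger called rises below that level were left out, such as ETFRF1, from 2.27 and 3.21 to 5.86. Several of the 16 started from dim mock levels, where no detection call was available. TMT1A, a methyltransferase gene, went from 3.73 and 3.97 to 7.95, and its other probe set differed by 0.94. ABCA1, which exports cholesterol, went from 4.91 and 4.81 to 7.84, and WNT2B, a Wnt ligand, from 5.66 and 5.57 to 8.45. The sodium channel gene SCN2A went from 6.03 and 6.14 to 8.68. LHFPL5 rose by 2.38, GPR183, an oxysterol receptor gene, by 2.35, and SLC4A8, a bicarbonate transporter gene, by 2.33. PTAFR, the receptor of platelet-activating factor, had the widest mock pair of the group (5.62 and 4.89 against 7.55) and a limma adjusted p of 0.0492; after a further quantile normalization it was 0.0503. SOCS1, which holds back cytokine signalling, went from 5.60 and 5.48 to 7.83 on its brighter probe set, while the other stood at 0.08. ABCG1 rose by 2.29 on its brightest probe set, but the 3 dimmer ones stood at 0.28, -0.34 and 0.27. Among the rises 2 were long noncoding RNAs, NHSL1-AS1 (2.41) and LINC02893 (2.21). Another 3 were histone genes, described further on.

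**Figure D2:**
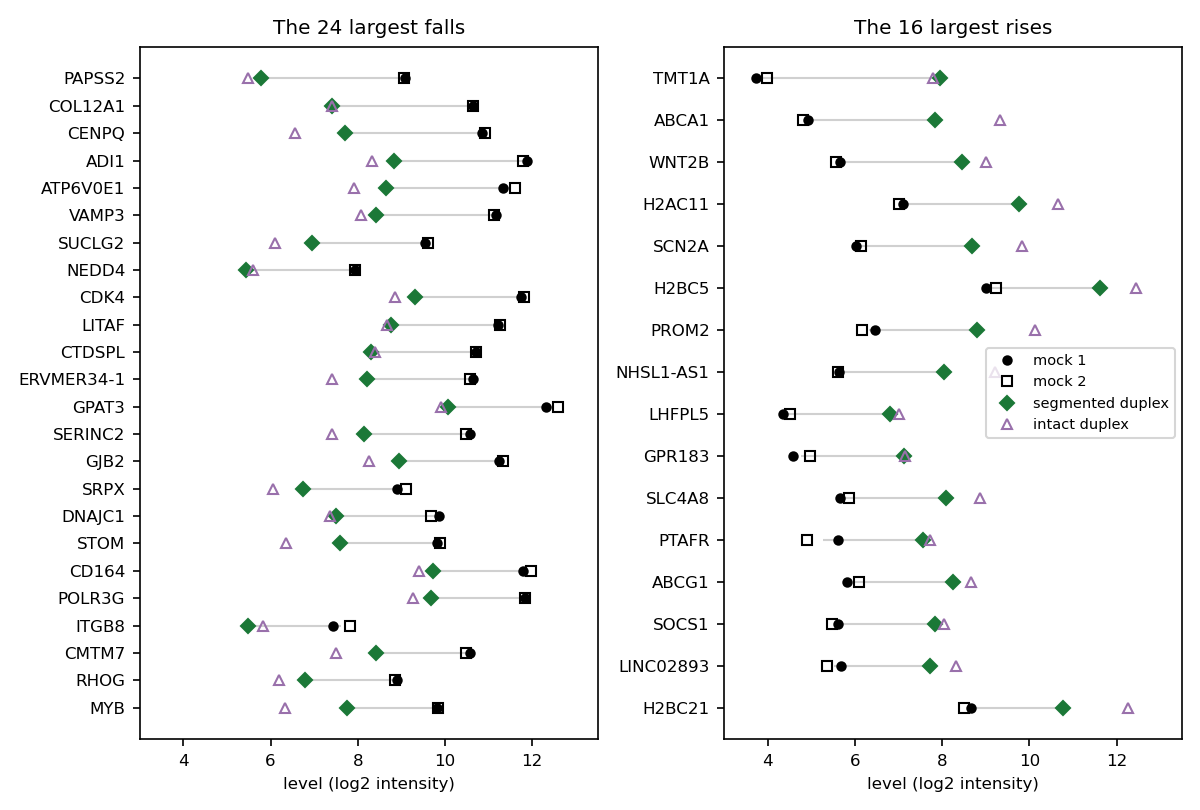
Levels (log2 intensity) on the single arrays of the 24 genes with the largest falls and the 16 with the largest rises that passed limma and reached the median level of all genes in the higher group, with the intact duplex added for comparison. Grey lines join the mock mean and the segmented array, which lies outside the mock pair by the rule that picked these genes.

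Reported targets of miR-124 were lower as a group. Of 80 measured genes taken from the literature, 33 fell, 1 rose and 46 did not pass, against 2.68% lower and 3.31% higher over all genes, and the median change was -0.60 against 0.01. These shares over all genes are not matched for level. The targets were bright, with a median mock level of 10.51 against 6.62 for all genes. Of the 4950 genes with mock levels from 9.70 to 14.41, 309 fell and 58 rose. Of the 80, 65 had a change below 0, against 48.3% of all genes. The list was written with earlier results of these arrays known and holds some of the largest falls on that account, so it is not independent evidence of the direction. Of 85 genes listed, 5 were not analysed here.

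Among targets of vesicle traffic and membranes 7 of 13 fell and 0 rose, with a median of -1.18. VAMP3, a SNARE protein of recycling vesicles, went from 11.18 and 11.12 to 8.42. CERS2, which makes ceramides with very long chains, went from 10.66 and 10.59 to 8.70. TMEM109 fell by 1.51 and BLOC1S6, of the complex that builds lysosome-related organelles, by 1.18. Among adhesion and matrix targets 6 of 12 fell and 1 rose, with a median of -0.82. The sialomucin gene CD164 went from 11.78 and 11.98 to 9.72 and the scaffold gene IQGAP1 from 11.64 and 11.72 to 9.65, with all 4 and all 5 probe sets lower. SNAI2, a repressor of epithelial genes, fell from 6.98 and 7.17 to 5.81, and the caveolin gene CAV1 from 12.78 and 12.88 to 11.92. FN1, fibronectin, was the 1 that rose, from 6.62 and 6.69 to 7.48; its limma adjusted p of 0.0499 became 0.0789 after a further quantile normalization and 0.0803 when all probe sets were averaged.

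Of the 19 signalling targets 7 fell and 0 rose, with a median of -0.57. CTDSPL, a phosphatase that supports silencing of neuronal genes, went from 10.71 on both mock arrays to 8.30, and the small GTPase gene RHOG from 8.91 and 8.86 to 6.78. ARPC1B, of the actin-branching complex, fell by 1.10 and the phosphatase gene PTPN1 by 1.05. RELA, a subunit of NF-kappaB, fell by 1.17 on its brighter probe set, while the dim one stood at 0.08. Of 20 targets in RNA binding, chromatin and transcription 6 fell and 0 rose, with a median of -0.22. The methyltransferase gene SMYD3 went from 9.24 and 9.12 to 7.98. PTBP1, which represses neuronal exons, went from 12.27 and 12.24 to 11.08, and its 3 probe sets fell by 1.17, 1.23 and 1.22. LHX2 (-1.06), NFATC1 (-0.99) and EZH2 (-0.93) fell as well, NFATC1 on 2 of 3 probe sets. REST, at -0.07, SOX9, at -0.07, and ACTL6A, at 0.06, did not pass. With the mean of all probe sets RELA, LHX2 and NFATC1 no longer passed, with limma adjusted p-values of 0.249, 0.0640 and 0.176.

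All 16 targets of the cell cycle and metabolism were below 0. Of these 7 fell, with a median of -0.62: PAPSS2, ADI1, SUCLG2, the kinase genes CDK4, CDK2 and CDK6, and PPP1R13L, an inhibitor of p53, from 9.31 and 9.22 to 7.75.

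**Figure D3:**
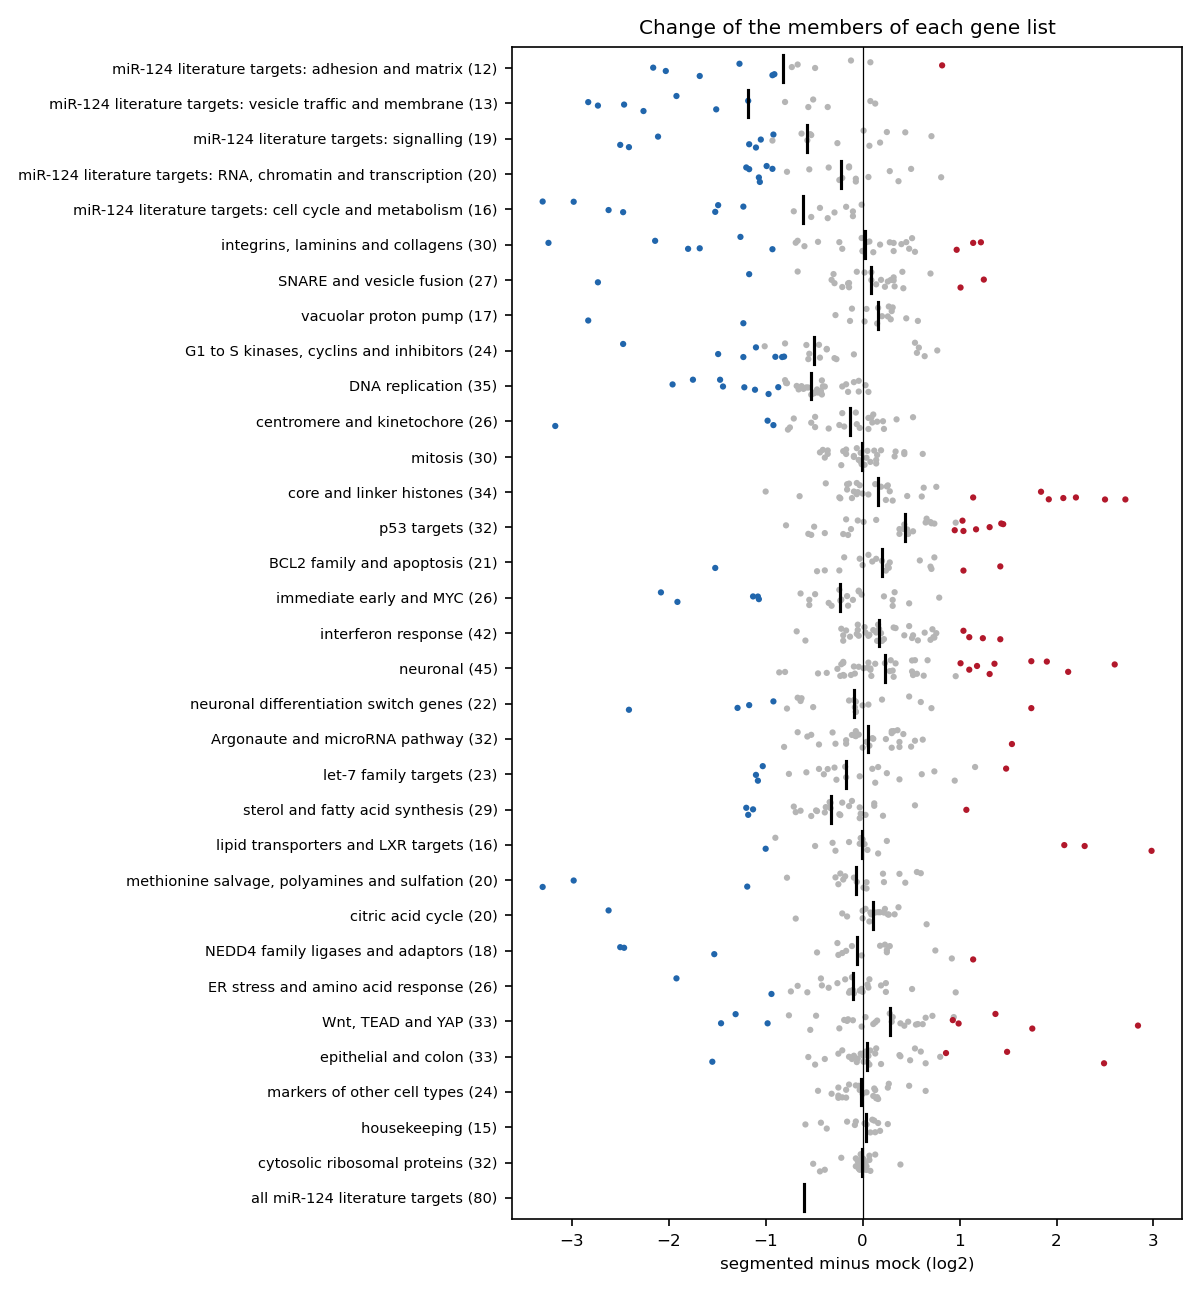
Change (segmented minus mock, log2) of every measured member of 32 gene lists, with the number measured in brackets, blue and red for members that passed limma lower and higher, grey for the others and a black bar at each median. The literature target lists have medians between -1.18 and -0.22, and the vacuolar proton pump (median 0.16) and citric acid cycle (median 0.11) hold a lowest member at -2.83 and -2.62; the bottom row gives only the median of all 80 targets.

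The counts of each list from here on stand against 2.68% lower and 3.31% higher over all genes. These shares are not matched for level, and falls were called mostly in bright genes. Median mock levels differed between lists, such as 10.57 for the G1 to S step, 10.92 for replication, 11.38 for mitosis and 5.49 for neuronal genes. In several families a few members fell far while the median stayed near that of all genes. Of 17 vacuolar proton pump genes 2 fell and 0 rose, with a median of 0.16. Besides ATP6V0E1 this was ATP6V0A2, from 8.80 and 8.83 to 7.58; both belong to the part that sits in the membrane. The related ATP6V0E2 stood at 0.57 and ATP6V0A1 at 0.45, and neither passed. Of 20 citric acid cycle genes SUCLG2 alone passed, from 9.54 and 9.60 to 6.95. Its partner SUCLG1 (-0.21) and the alternative subunit SUCLA2 (0.08) did not pass. Among 27 genes of vesicle fusion VAMP3 and STX10 (-1.17) fell, and VAMP2 (1.01) and VAMP1 (1.25), the SNAREs of synaptic vesicles, rose. VAMP1 had a limma adjusted p of 0.0499, of 0.0698 after a further quantile normalization and of 0.0512 with centred arrays.

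Sulfation and protein breakdown followed the same outline. PAPSS1, the other synthase of the sulfate donor, went from 10.96 and 10.77 to 9.68, so both synthases were lower. With ADI1 these made up the 3 falls, against 0 rises, among 20 genes of methionine salvage, polyamines and sulfation (median -0.07). Of 18 genes for NEDD4 family ubiquitin ligases and their adaptors 3 fell and 1 rose. NEDD4 was 7.93 on both mock arrays and 5.43 on the segmented array, and NEDD4L went from 10.79 and 10.74 to 9.23 on its brightest of 3 probe sets, all of which were lower. The adaptor gene LITAF went from 11.21 and 11.26 to 8.77, and ARRDC4 rose by 1.14.

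Matrix and integrin genes moved in both directions. Of 30 measured integrin, laminin, collagen and collagen-modifying genes 6 fell and 3 rose, with a median of 0.02. Next to COL12A1 and ITGB8, 2 enzymes that modify collagen fell: P4HA1, a proline hydroxylase, from 10.10 and 10.16 to 8.33, and PLOD2, a lysine hydroxylase, from 9.65 and 9.81 to 8.47, the latter on 2 of 3 probe sets. ITGB1, the shared beta chain of many integrins, went from 13.06 and 13.14 to 12.17. LAMC1 fell from 11.81 and 11.82 to 10.14 on its brightest probe set, with the others at 0.13, -0.81 and -0.02. The basement membrane collagens COL4A5 (1.22) and COL4A6 (1.14) and the fibronectin receptor gene ITGA5 (0.97) rose. With the mean of all probe sets LAMC1 (-0.59, limma adjusted p = 0.139), PLOD2 (-0.88, 0.0625) and COL4A6 (0.62, 0.0609) no longer passed. COL4A5 missed the threshold after a further quantile normalization (1.12, limma adjusted p = 0.0569).

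Cell cycle genes were counted by phase. Of 24 genes of the G1 to S step 7 fell and 0 rose, with a median of -0.50. CDK4, which starts the step, went from 11.75 and 11.81 to 9.31, CDK2 from 11.23 and 11.16 to 9.71 and CDK6 from 12.26 and 12.23 to 11.01. CDC25A, the phosphatase that frees CDK2, fell by 1.10, E2F8 by 0.90, E2F1 by 0.83 and CCNE1, cyclin E1, by 0.81. The inhibitor genes CDKN1B (0.56), CDKN1C (0.58), CDKN2B (0.54) and CDKN2D (0.77) did not pass, and neither did CDKN1A (-0.56). The 0 rises of the list did not hold in every fit. With a pseudocount of 32 there were 13 falls and 5 rises, and with the trended and robust prior 16 and 5. Without the dimmest 40% of genes, 15 fell and 5 rose of 22 tested.

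Replication genes were lower nearly throughout. Of 35 measured members 8 fell, 0 rose and 33 were below 0, with a median of -0.53. MCM10, which helps to switch on the replicative helicase, went from 10.16 and 10.33 to 8.28. DTL, the substrate receptor of a ubiquitin ligase active in S phase, went from 10.89 and 10.95 to 9.17 on all 3 probe sets. GINS2 and GINS4, 2 of the 4 parts of the helicase's GINS complex, fell by 1.47 and 1.44, and GINS3 stood at -0.61. The origin recognition genes ORC1 (-1.22) and ORC6 (-0.87), RFC5 (-1.11) of the clamp loader and MCM2 (-0.97) fell as well. PCNA, the sliding clamp, at 0.03 and LIG1 at 0.06 were the 2 members above 0.

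Of 26 centromere and kinetochore genes 3 fell and 0 rose, with a median of -0.13. Those were CENPQ, CENPO (9.32 and 9.21 to 8.28) and CENPU (10.13 and 10.17 to 9.24), which belong to the same inner kinetochore complex. CENPP, another part of that complex, stood at -0.71 and did not pass. Of 30 mitosis genes limma called 0, and 7 had an unadjusted p under 0.05; with the trended and robust prior 5 were lower and 5 higher. Their changes ran from -0.44 (AURKA) to 0.62 (NEK2) with a median of -0.01. CDK1, the kinase that drives mitosis, was at -0.06 and CCNB1, its cyclin, at -0.04.

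Histone genes were among the largest rises. Of 34 measured histone genes 7 rose and 0 fell, with a median of 0.16. H2AC11 went from 7.10 and 7.0 to 9.76, H2BC5 from 9.01 and 9.23 to 11.62, and H2BC21 from 8.65 and 8.51 to 10.78. H2BC11 (5.21 and 4.82 to 7.09), H3C10 (7.31 and 7.12 to 9.13), H2AC6 (9.90 and 9.96 to 11.77) and H2BC12 (10.54 and 10.48 to 11.65) followed. In all 7 the segmented array lay above both mock arrays by 1 unit or more. Of the genes that rose 1 of 7 lay below the median mock level of all genes, against 18 of the 27 that did not pass. H4C3, at -1.0, did not pass, with mock arrays at 9.35 and 8.64. The coding parts of these genes are near-identical copies, so probe sets may share signal and the split between members is uncertain.

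**Figure D4:**
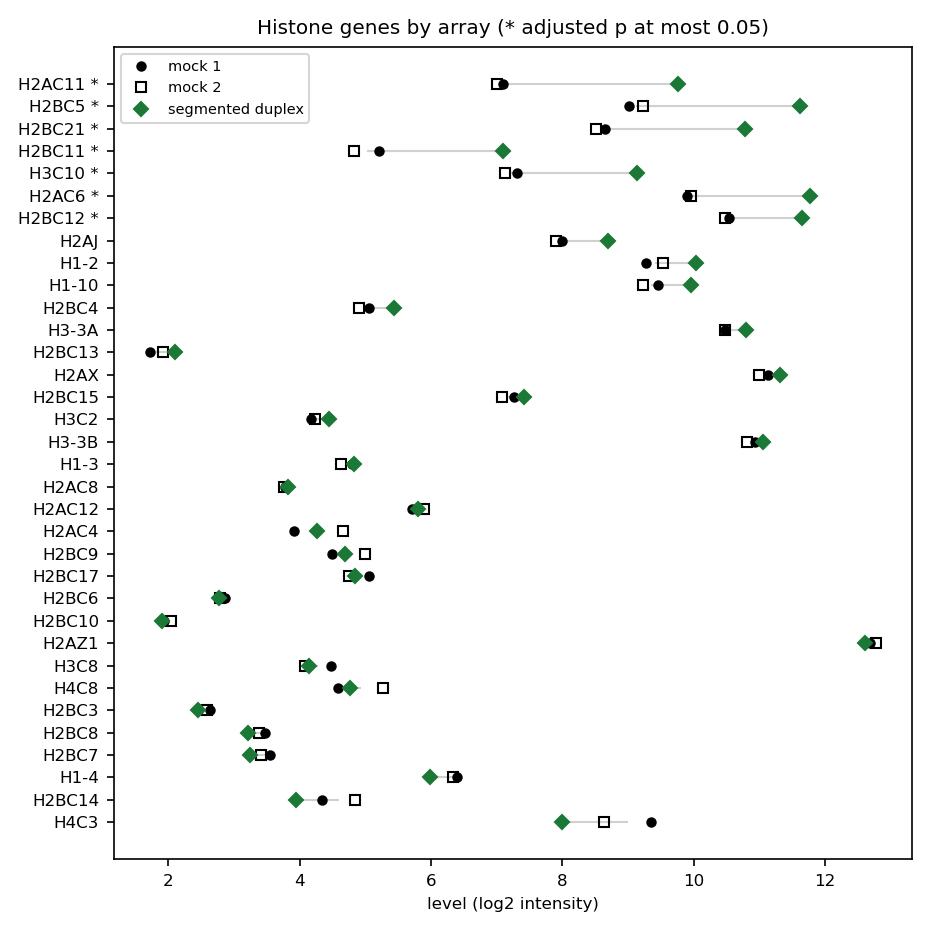
Levels (log2 intensity) of 34 histone genes on the mock arrays and the segmented array, ordered by change, with a star for the 7 genes past the limma threshold. The 7 starred genes lie 1 unit or more above both mock arrays, and the 27 others carry no star.

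Many histone genes stand in head-to-head pairs that share a promoter, and such a pair may be read together. Windows of 300 bases (250 before to 50 after the start) came from RefSeq on GRCh38.p14, which held 1 for 32 of the 34 genes. Below are 3 windows from pairs whose windows overlap by 253 (H2AC11 with H2BC11), 255 (H2AC6 with H2BC4) and 268 bases (H2AC8 with H2BC8), chosen because both, 1 or none of the pair rose. Capitals mark the octamer ATTTGCAT, known in histone H2B promoters as a site for OCT factors, and TATAAA, each on either strand.
H2AC11, chr6:27132793-27133092, plus strand: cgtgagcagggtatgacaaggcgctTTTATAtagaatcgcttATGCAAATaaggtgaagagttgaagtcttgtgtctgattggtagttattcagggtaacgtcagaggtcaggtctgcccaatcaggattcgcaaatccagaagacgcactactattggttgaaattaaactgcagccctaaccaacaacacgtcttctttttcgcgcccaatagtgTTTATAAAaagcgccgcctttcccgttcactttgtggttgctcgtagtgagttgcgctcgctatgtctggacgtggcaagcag
H2AC6, chr6:26123922-26124221, plus strand: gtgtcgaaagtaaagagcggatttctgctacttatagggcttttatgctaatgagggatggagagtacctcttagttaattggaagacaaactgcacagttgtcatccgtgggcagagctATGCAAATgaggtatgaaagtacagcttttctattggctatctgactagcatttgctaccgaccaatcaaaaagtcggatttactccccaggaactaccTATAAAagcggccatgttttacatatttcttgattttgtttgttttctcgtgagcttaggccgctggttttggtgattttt
H2AC8, chr6:26216671-26216970, plus strand: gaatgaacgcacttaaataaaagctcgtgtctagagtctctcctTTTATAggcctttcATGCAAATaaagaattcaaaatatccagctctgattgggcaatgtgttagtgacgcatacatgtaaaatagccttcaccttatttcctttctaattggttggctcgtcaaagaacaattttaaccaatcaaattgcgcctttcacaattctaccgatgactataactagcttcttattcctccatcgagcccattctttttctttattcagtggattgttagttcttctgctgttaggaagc
In the first pair H2AC11 rose by 2.71 and H2BC11 by 2.07. In the second H2AC6 rose by 1.84, while H2BC4 did not pass on its brighter probe set (0.46). Its dimmer probe set stood at 1.68, so the split of this pair rests on the choice of probe set. In the third H2AC8 (0.06) and H2BC8 (-0.23) did not pass, both from mock levels under 4. The octamer was found in all 3 windows. Over the list it was in 5 of the 7 windows of genes that rose and 12 of the 25 of genes that did not pass, against 1.77% of all 35116 windows. In each of the 3 pairs the octamer lies where the windows overlap, so 1 site counts for both genes. The counts are thus of windows and not of separate sites. TATAAA was in 7 of 7 and 16 of 25, against 11.5%, with overlapping matches on both strands counted once per window. The windows thus hold the octamer in genes that rose and in genes that did not.

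Among 32 measured p53 targets 7 rose and 0 fell, against 3.31% and 2.68% over all genes, with a median of 0.44. Of the 32, 10 had a change below 0. The 0 falls did not hold in every fit. With a pseudocount of 32 there were 3 falls and 19 rises, and with the trended and robust prior 5 and 19. Without the dimmest 40% of genes, 5 fell and 19 rose of 29 tested. SESN1, which dampens mTOR signalling, went from 8.63 and 8.77 to 10.15. TP53I3 went from 9.72 and 9.67 to 11.12, and CYFIP2 from 8.80 and 8.85 to 10.14. GDF15, a stress-induced cytokine, rose by 1.17 and FAS, a death receptor, by 1.03. BBC3, which promotes apoptosis, rose by 1.04 and XPC, a DNA repair gene, by 0.95. MDM2, the feedback inhibitor of p53, was at 0.01 and RRM2B at -0.79, and neither passed. In the BCL2 family, 2 death-promoting members rose, BBC3 and BMF, the latter from 3.38 and 3.37 to 4.79. BCL2 itself, which blocks apoptosis, fell from 7.55 and 7.59 to 6.05 on all 4 probe sets. Those were the 1 fall and 2 rises among 21 genes of that list, whose median was 0.20.

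Immediate early genes, the first to answer growth signals, were lower where they passed. Of 26 measured with the MYC and MYB families 5 fell and 0 rose, with a median of -0.23. EGR3 went from 7.13 and 7.09 to 5.21, EGR1 from 12.59 and 12.62 to 11.53 and JUN from 9.33 and 9.41 to 8.24. MYC went from 11.51 and 11.32 to 10.33 and MYB from 9.82 and 9.84 to 7.75. With the mean of all probe sets JUN was at -0.68 (limma adjusted p = 0.0570).

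Among genes of the TEAD, YAP and Wnt pathways 3 fell and 5 rose of 33, with a median of 0.28. The falls were YAP1 and 2 classic targets of it, CCN2 (9.84 and 9.96 to 8.44) and CCN1 (10.14 and 10.21 to 8.87). YAP1 fell by 0.98 on its brightest probe set, and the other 4 stood at -1.05, 0.14, -0.21 and -0.52. The rises lay on the Wnt side: besides WNT2B these were WNT3 (0.93), the receptor gene LGR4 (1.75, on 2 of 3 probe sets) and the feedback inhibitors AXIN2 (0.99) and NKD1 (1.37). With the mean of all probe sets WNT3, AXIN2, NKD1 and YAP1 no longer passed, with limma adjusted p-values of 0.0629, 0.0790, 0.0654 and 0.0840.

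Genes with neuronal functions rose in 9 of 45 cases and fell in 0, with a median of 0.23 (0.04 with arrays centred on their medians). Over all genes 3.31% rose and 2.68% fell. PTBP2, the neuronal relative of PTBP1, went from 10.30 and 10.31 to 12.04, and SCG2, a protein of secretory granules, from 7.05 and 7.06 to 8.96. The kinesin genes KIF5C (1.36), KIF5A (1.18) and KIF3C (1.10), which move cargo along axons, rose on all their probe sets. SCN3A, a sodium channel gene next to SCN2A in function, went from 3.15 and 3.14 to 5.26 on 1 of 2 probe sets. RTN1 rose by 1.31 on its brightest of 3 probe sets, with the others at 0.47 and -0.02; it missed the threshold with the mean of all probe sets (limma adjusted p = 0.0803) and after a further quantile normalization (limma adjusted p = 0.0622). VAMP2 and SCN2A, given above, complete the 9. Neuron markers did not pass: RBFOX3 was at 0.06, STMN2 at -0.19, DCX at -0.22 and NEFL at -0.04. SYT1, at 10.08 and 10.13 in mock cells, was at 10.61. The summed linear intensity of 6 neuronal markers was 1228 and 1262 on the mock arrays and 1726 on the segmented array, with 5 of the 6 below the median level and none at 0. SYT1, the brightest, makes up most of that sum. The part of these markers in the rises was not tested.

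The regulators that set neuronal against non-neuronal programmes changed in part. Of 22 such genes 4 fell and 1 rose, with a median of -0.09. Besides PTBP1, PTBP2 and CTDSPL this involved CTDSP1 (10.52 and 10.38 to 9.54) and SMARCC1, a core subunit of the BAF chromatin remodeller, from 11.80 and 11.81 to 10.51 on all 3 probe sets. The subunits exchanged when BAF becomes neuronal did not pass, with ACTL6A at 0.06, ACTL6B at -0.14, PHF10 at -0.67, DPF1 at 0.00 and DPF3 at -0.07. With the mean of all probe sets CTDSP1 was at -0.58 (limma adjusted p = 0.0896).

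Of 32 genes of the microRNA machinery 1 passed: AGO4, an Argonaute gene, rose from 7.17 and 6.82 to 8.53, with all 5 probe sets higher. That count is near the 3.31% of all genes that rose. AGO1 stood at 0.30, AGO2, the slicing Argonaute, at -0.04 and AGO3 at 0.50. Let-7 family targets, which respond to another microRNA, had 3 falls and 1 rise among 23 genes and a median of -0.17. The falls were CDC25A, MYC and PLAGL2 (-1.03), and ARID3A rose by 1.48. LIN28B (-0.17), HMGA2 (0.61) and IGF2BP1 (0.16) did not pass. Of 42 interferon response genes, which can answer foreign RNA, 4 rose and 0 fell: HERC6 (from 7.40 and 7.48 to 8.48), IFI44, IFIT1 and IFIT2. IFIT1 went from 7.25 and 7.06 to 8.57 and IFIT2 from 8.11 and 7.89 to 9.24, while IFNB1 (0.06), ISG15 (0.22) and MX1 (0.15) did not pass. The median of the list was 0.17, and it was -0.02 with arrays centred on their medians.

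Few sterol and lipid genes passed, mostly lower in the synthesis list and mostly higher in the transporter list, whose median was -0.01. Of 29 synthesis genes 3 fell and 1 rose, with a median of -0.33. DHCR7, the last step of cholesterol synthesis, went from 9.98 and 9.88 to 8.75, LSS, which closes the sterol rings, from 10.59 and 10.46 to 9.40 and the sterol carrier gene STARD4 from 10.03 and 10.02 to 8.82. TM7SF2, a sterol reductase gene, rose by 1.07. HMGCS1 (-0.69) and SQLE (-0.24) did not pass, and neither did the regulators SREBF1 (-0.02) and SREBF2 (0.03). Among 16 lipid transporters and targets of the sterol sensor LXR, ABCA1, ABCG1 and ABCA12 (3.88 and 4.40 to 6.22) rose and LPCAT3 (-1.0) fell. MYLIP, another LXR target, was at -0.02, and the LXR gene NR1H3 at -0.28. With the mean of all probe sets LSS (-0.69, limma adjusted p = 0.0940), STARD4 (-0.76, 0.0614) and ABCG1 (0.63, 0.0604) did not pass.

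In the secretory stress list 2 of 26 genes fell and 0 rose, with a median of -0.10. KDELR3, which returns proteins to the endoplasmic reticulum, went from 10.05 and 10.16 to 8.19, and TRIB3 from 9.22 and 9.16 to 8.25. The chaperone gene HSPA5 was at -0.01. Of 33 epithelial and colon genes 1 fell and 3 rose, against 2.68% and 3.31% over all genes, with a median of 0.05. ESRP1, an epithelial splicing factor, went from 11.70 and 11.66 to 10.14, while PROM2 (2.49), TSPAN8 (1.49) and GRHL2 (0.86) rose. GRHL2 no longer passed after a further quantile normalization (0.74, limma adjusted p = 0.0528) or with centred arrays (0.66, limma adjusted p = 0.0520). Of 15 housekeeping and 32 ribosomal protein genes limma called 0, with 3 and 4 at an unadjusted p under 0.05 and 4 and 3 called with the trended and robust prior. Ribosomal protein genes ran from -0.51 to 0.39 with a median of -0.01.

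The intact duplex used the same mock arrays, so both sets of changes share their error. Against mock it gave 4937 calls (24.9%), 2064 lower (10.4%) and 2873 higher (14.5%), and 54 lower and 4 higher among the 80 literature targets. The test of the difference between the duplexes called 0 of 19798 genes by limma at an adjusted p of 0.05 (0%), with 3273 at an unadjusted p under 0.05 and a smallest adjusted p of 0.181. The same difference gave 1850 genes without the dimmest 40% of genes, 1150 with a pseudocount of 32 and 2412 with the trended and robust prior. Among the 1186 called genes, 219 had a larger change with the segmented than with the intact duplex, and for 8 the values of the duplexes had opposite signs; these counts carry no test. Those 8 and the other genes of this paragraph and the next were picked after their values were seen.

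SERINC5, a membrane protein gene known for restricting retroviruses, passed limma in both directions. On its brightest probe set it was at 10.52 and 10.61 in mock cells, 11.42 with the segmented and 9.83 with the intact duplex, a rise of 0.86 (limma adjusted p = 0.0484) and a fall of 0.74 (limma adjusted p = 0.0277). The difference of 1.60 had an SE of 0.15 and a limma adjusted p of 0.181, which became 0.00204 without the dimmest 40% of genes, 0.0229 with the pseudocount and 1.67e-08 with the trended and robust prior. Its 3 dimmer probe sets stood at 1.83, 0.82 and 1.27 with the segmented duplex and also above mock, at 1.89, 0.31 and 0.43, with the intact duplex. The opposite direction thus rests on the brightest probe set, and with the mean of all probe sets the intact change was 0.47. The rise with the segmented duplex missed the threshold with centred arrays (0.67, limma adjusted p = 0.0624).

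The other 7 genes with opposite signs passed limma with the segmented duplex and not with the intact one, and in that fit no difference between the duplexes passed. In alternatives some did: the difference of PPP1R14C had a limma adjusted p of 0.0029 without dim genes, 0.0229 with the pseudocount and 3.76e-07 with the trended and robust prior, and DLX2, DRAM1 and MYRIP passed in the same 3. The difference of CASKIN1 passed with the pseudocount (limma adjusted p = 0.0451) and with that prior (limma adjusted p = 0.000165). MFAP5 (limma adjusted p = 0.0108) and TCAM1P (limma adjusted p = 0.0368) passed with that prior only. For some of the 7 the opposite sign was itself not stable. With centred arrays the intact change was -0.06 for DLX2, -0.06 for DRAM1 and -0.07 for PPP1R14C, and with the mean of all probe sets it was 0.01 for TCAM1P. CASKIN1, MFAP5 and MYRIP kept opposite signs in each alternative fit that tested them. PPP1R14C, an inhibitor of protein phosphatase 1, was at 10.82 and 10.88 in mock cells, 9.81 with the segmented and 11.02 with the intact duplex. DRAM1, a lysosomal protein that promotes autophagy, was at 9.42 and 9.52, then 8.62 and 9.66. The developmental factor gene DLX2 differed from mock by -0.83 and 0.19, and CASKIN1, a dim gene, by -1.46 and 0.47. MFAP5 stood at -0.86 and 0.30 from mock levels near 3. MYRIP and TCAM1P went the other way, at 0.87 and 0.81 with the segmented and -0.23 and -0.12 with the intact duplex. NEDD4L, which changed the same way with both, was at -1.53 and -0.73, PLA2G12A at -1.35 and -0.34 and the interferon gene IFI44 at 1.10 and 0.20. With the segmented duplex DRAM1, MFAP5, MYRIP and TCAM1P missed the limma threshold with the mean of all probe sets. MYRIP and TCAM1P also missed it after a further quantile normalization (limma adjusted p = 0.058 and 0.0507) and with centred arrays (0.0506 and 0.0592), and MFAP5 with the pseudocount (0.181).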

How the data were processed

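Total RNA was amplified, labelled with biotin and hybridised to 4 arrays, 1 per sample. The deposited table holds 1 intensity per probe set and array, from 2.507 to 22268, made with RMA per the submitters' processing notes (its version was not given in the sources used here). The method includes quantile normalization, so a shift common to most genes would be removed. RMA works in log2, so these intensities were taken as brought back to a linear scale, and log2 was taken, nothing added.

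Gene names came from the platform annotation, with symbols updated by Entrez identifier to RefSeq (GRCh38.p14; 35134 matched, 50 not). Those with several genes (374) or unlisted (16819) were left out. For 8731 genes the brightest probe set over the 4 arrays stood for the gene. Probe coordinates are not printed; the files name no build.

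limma 3.58.1 (R 4.3.3) fitted 3 group means to all 4 arrays with eBayes (1 residual degree of freedom, 2.89 prior degrees of freedom), with Benjamini-Hochberg adjustment over all 19798 genes and a threshold of 0.05, and was tested on simulated data. Named were 24 falls and 16 rises, the largest that passed, alike against both mock arrays and above median level in the higher group, DICER1, and members of 32 lists. Members and lists were chosen with earlier results of these data known. Lists are described by counts and medians, with no set test. The number of arrays limits the precision. Alternatives tried were centring, a further quantile normalization, leaving out the dimmest 40% of genes, a pseudocount of 32, another prior, other choices of probe set, fewer arrays in the fit and leaving out each mock array.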

Additional observations from a re-analysis of the deposited data

How the results depend on the processing

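The direction of the 146 genes followed, 145 of them called, held under each alternative that tested them (139 were tested with the dimmest 40% left out). Every called gene lay on the same side of both mock arrays, so leaving out either mock array could not turn it. The genes were also picked from these same arrays, so the kept direction is no independent check. The number of calls depended on the prior and on dim genes. Calls for the segmented duplex were 4781 (1814 lower, 2967 higher) without the dimmest 40% of genes, 4354 (1643 and 2711) with a pseudocount of 32, 5415 (2035 and 3380) with the trended and robust prior and 1849 (1256 lower) with arrays centred on their medians. For the intact duplex they were 7809 (3143 and 4666) with that prior, and 4080 lower with centring. The difference of the duplexes gave 1850 (819 lower and 1031 higher), 1150 (471 and 679) and 2412 (1061 and 1351) with the dim genes left out, the pseudocount and the prior, against 0. Of the 1186 calls 759 were kept in every alternative fit, where the genes left out as dim count as not kept. Of the 146 genes 21 missed the threshold with the mean of all probe sets, 8 after a further quantile normalization, 7 with centring and 1 with the pseudocount. The count by size stayed within 1.5 times its value of 2428, without either mock array too; without one of them no residual degree of freedom is left, so no test was run. The probe-set alternatives for the intact duplex and for the difference were added after seeing the data. No paired analysis was possible because the duplex arrays have no replicates whose numbers could pair with the mock arrays. Low signal limits dim genes, and signal over background was not available.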

Other observations

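With the segmented duplex, long noncoding RNAs were scarce among the genes that fell and near their overall share among those that rose. They made up 2117 of the 19798 genes (10.7%), 76 of the 655 genes that rose (11.6%) and 8 of the 531 that fell (1.51%). Their median mock level was 3.63, against 6.62 for all genes, and falls were called mostly in bright genes. Among the 160 long noncoding RNAs with a mock level above the median, 12 rose and 4 fell. Of all 4949 genes with mock levels from 6.63 to 9.70, 309 rose and 194 fell. Of the 4950 genes from 9.70 to 14.41, 58 rose and 309 fell. The shares given first do not hold level fixed, and the part of level in them was not tested further.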
